A study of Mus musculus with 6 samples.

Results

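The nuclear-encoded subunits of mitochondrial complex I were followed in the RNA of livers from mice on a regular diet (RD) and mice on a diet high in cholesterol (HCD). The members were taken by gene symbol, as the Nduf genes of the a, ab, b, c, s and v series that end in a number, without Ndufa4 and its relative Ndufa4l2. This gave 36 of the 20673 genes in the deposited tables. The livers came from 3 mice fed RD, labelled as untreated, and 3 mice fed HCD for 3 days, with 1 library from each mouse. All 6 were C57BL/6J mice, an inbred laboratory strain, and no genetic change or infection is given for any of them. The HCD contains cocoa butter, cholesterol and sodium cholate, a bile salt, so that these components and the fat content changed together. The study used both sexes, and the labels give neither sex nor age for a single liver. The labels give the libraries replicate numbers and library names. The RD libraries are named in a series that starts with A and the HCD libraries in a series that starts with Liver, what the series stand for is not stated, and any difference between them cannot be told apart from the diet. As the labels name no separate cultures or cohorts, the p-values below measure only the spread between these samples.

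Complex I is the first enzyme of the respiratory chain. It takes electrons from NADH, passes them along a chain of iron-sulfur clusters to ubiquinone, and pumps protons across the inner mitochondrial membrane. The complex is L-shaped, with a peripheral arm in the matrix that holds the NADH-binding N module and the ubiquinone-reducing Q module, and a membrane arm that pumps protons and is divided here into a part proximal to the peripheral arm and a distal part. Core subunits are those conserved from bacteria that carry out the reaction, and supernumerary subunits surround them and are needed to assemble or stabilise the complex. Of the 36 genes, 7 encode core subunits, all in the peripheral arm, and 29 encode supernumerary subunits. By general knowledge of the structure, 16 genes were placed in the peripheral arm (10 in the N module and 6 in the Q module) and 19 in the membrane arm (9 proximal and 10 distal), while Ndufab1, the mitochondrial acyl carrier protein, sits in both. The other core subunits are the 7 ND proteins encoded by mitochondrial DNA.

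Promoter sequences from RefSeq on GRCm38.p6, 250 bases before to 50 after each annotated start, were matched for 32 of the 36 subunits, in 34 windows. Ndufa2, Ndufb9 and Ndufs1 were among those without an entry. They were searched on both strands for 4 sequences recognised by factors known for mitochondrial genes, where N is any base: GCGCA and GCGC with 1 base between them for NRF1, CCGGAAG for ETS factors such as GABP, AANATGGCG for YY1, and TCAAGGTCA for ERR receptors. The windows of 6 subunits are printed because these genes had the clearest rise, the highest value among the core subunits, or the lowest value of all. Capitals mark a match, and position 1 is the annotated start.
Ndufb2 (chr6:39592315-39592614, plus strand; the highest log2 fold change; no match): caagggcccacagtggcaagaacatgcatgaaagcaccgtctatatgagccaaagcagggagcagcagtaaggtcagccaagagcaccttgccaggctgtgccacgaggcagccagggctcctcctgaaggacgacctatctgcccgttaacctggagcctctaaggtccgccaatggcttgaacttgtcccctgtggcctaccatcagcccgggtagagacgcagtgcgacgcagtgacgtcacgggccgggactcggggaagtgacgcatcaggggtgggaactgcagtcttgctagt
Ndufb7 (chr8:83566508-83566807, plus strand; higher with HCD; ETS match from position -20): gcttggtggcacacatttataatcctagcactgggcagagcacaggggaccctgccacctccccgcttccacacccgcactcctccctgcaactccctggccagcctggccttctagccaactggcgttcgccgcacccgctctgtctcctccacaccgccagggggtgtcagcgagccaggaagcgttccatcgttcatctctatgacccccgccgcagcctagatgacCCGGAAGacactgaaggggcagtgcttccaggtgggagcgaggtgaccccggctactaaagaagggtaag
Ndufc1 (chr3:51408906-51409205, minus strand; higher with HCD; YY1 match from position 23): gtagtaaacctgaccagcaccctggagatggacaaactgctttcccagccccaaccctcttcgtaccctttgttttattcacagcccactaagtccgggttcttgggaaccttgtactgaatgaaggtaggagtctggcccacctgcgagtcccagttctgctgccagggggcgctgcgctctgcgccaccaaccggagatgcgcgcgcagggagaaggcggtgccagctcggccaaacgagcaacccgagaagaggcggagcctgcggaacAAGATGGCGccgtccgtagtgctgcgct
Ndufs5 (chr4:123718137-123718436, minus strand; higher with HCD; NRF1 match from position -98): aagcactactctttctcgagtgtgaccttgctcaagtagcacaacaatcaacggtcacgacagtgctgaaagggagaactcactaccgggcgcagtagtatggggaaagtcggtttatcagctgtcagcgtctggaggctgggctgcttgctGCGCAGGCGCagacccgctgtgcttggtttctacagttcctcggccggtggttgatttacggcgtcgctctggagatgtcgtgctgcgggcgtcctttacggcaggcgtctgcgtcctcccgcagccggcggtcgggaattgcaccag
Ndufs7 (chr10:80249199-80249498, plus strand; the highest core subunit; YY1 match from position 25): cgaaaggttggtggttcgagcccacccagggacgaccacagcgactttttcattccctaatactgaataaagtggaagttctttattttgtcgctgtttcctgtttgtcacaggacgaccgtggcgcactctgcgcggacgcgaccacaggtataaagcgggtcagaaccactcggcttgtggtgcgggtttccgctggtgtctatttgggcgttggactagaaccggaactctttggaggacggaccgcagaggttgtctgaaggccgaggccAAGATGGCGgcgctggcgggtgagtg
Ndufc2 (chr7:97399753-97400052, plus strand; the lowest log2 fold change; no match): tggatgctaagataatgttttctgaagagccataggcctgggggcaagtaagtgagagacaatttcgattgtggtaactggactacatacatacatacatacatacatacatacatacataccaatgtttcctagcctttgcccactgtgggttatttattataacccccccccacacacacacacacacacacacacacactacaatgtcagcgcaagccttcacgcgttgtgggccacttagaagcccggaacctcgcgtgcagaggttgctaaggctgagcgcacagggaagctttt

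The NRF1 sequence was found for 7 of the 32 subunits (8 of 34 windows, 23.5%, against 4.60% of all 32851 promoter windows). These were Ndufa5, Ndufa6, Ndufa8, Ndufa11, Ndufb4, Ndufs5 and Ndufs6, and Ndufb4 held 3 matches. The windows of Ndufa5 overlap and hold the same site, which is counted in each of them. The YY1 sequence was also found for 7 subunits (Ndufa7, Ndufa9, Ndufb11, Ndufc1, Ndufs4, Ndufs6 and Ndufs7), which is 20.6% of the subunit windows against 2.38% of all windows. The ETS sequence was found for 4 (Ndufb6, Ndufb7, Ndufs3 and Ndufs8), or 11.8% of windows against 8.86%, and the ERR sequence for 0, against 0.423% of all. Within a window no match overlapped another. In each of the 3 groups with matches, the response to the diet spanned a wide range of log2 fold changes of HCD over RD: from 1.05 for Ndufa5 to 0.11 for Ndufs6 with the NRF1 sequence, from 0.82 for Ndufc1 to -0.016 for Ndufb11 with the YY1 sequence, and from 0.94 for Ndufb7 to 0.19 for Ndufs3 with the ETS sequence. A match is a run of letters and not a measured binding site.

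Totals per library ran from 13771630 to 23129576 counts for RD and from 13935491 to 18545549 counts for HCD. Counts were scaled to CPM, counts brought to a common library total after correction for composition, and differences are log2 fold changes of HCD over RD from edgeR's quasi-likelihood test, called at an adjusted p under 0.05 (Benjamini-Hochberg over all 13105 genes tested). HCD replicate 1 held 5032 reads of Xist, the RNA of the inactive X chromosome, and each of the other libraries held 0, so values without this liver are given where they matter. Sex may therefore be unbalanced between the diets, with such reads in an HCD liver alone, and its part in the results was not tested. The summed CPM of fixed marker lists overlapped between the diets: hepatocytes at 82997.5 to 116644.1 with RD and 91659.1 to 132162.0 with HCD, Kupffer cells at 89.1 to 156 and 123 to 298, sinusoidal endothelial cells at 80.9 to 144 and 107 to 168, stellate cells at 182 to 227 and 207 to 350, cholangiocytes at 37.4 to 91.9 and 64.5 to 98.1, leukocytes at 5.09 to 8.77 and 5.84 to 11.5, and red blood cells at 138 to 239 and 177 to 468. Of these 36 marker genes, edgeR called 2, the red blood cell genes Hba-a1 (2.41) and Hbb-bs (2.28), both higher with HCD, and DESeq2 called 6, all higher: these 2, the globin Hbb-bt, the Kupffer cell genes Cd5l and Clec4f, and Ttr of the hepatocyte list. The sums of the red blood cell list overlapped with Alas2 in it, while the summed CPM of its 4 globins was 57.1, 32.6 and 85.2 with RD and 168, 371 and 333 with HCD, without overlap. Of the marker genes only the T cell gene Cd3e was at 0 in any liver. The part of these cells in the results was not tested, and in whole liver fewer cells of a type and less RNA per cell cannot be told apart.

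The complex I subunit RNAs as a group lay above 0 in log2 fold change of HCD over RD, and 6 of them passed the test. All 36 subunits passed the filter on low counts, 31 had a log2 fold change above 0 (86.1%, against 50.7% of all genes tested), and their median was 0.45, beside 0.0074 for all genes. The test called 6 of 36 subunits higher (16.7%, against 1.95% of all genes) and 0 lower (against 1.32%): Ndufb2, Ndufb7, Ndufc1, Ndufab1, Ndufb9 and Ndufs5, all supernumerary. In either direction the share over all genes was 3.27%. At an unadjusted p under 0.05, 20 subunits were higher (55.6%, against 11.1%) and 1 was lower, Ndufc2 (against 9.81%). In 21 subunits every HCD liver lay above every RD liver (58.3%, against 14.0% of all genes), in 0 every HCD liver lay below (against 13.7%), and in 15 the diets overlapped. DESeq2 called 11 higher (30.6%, against 3.88% of the genes to which it gave an adjusted p) and 0 lower (against 3.09%).

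**Figure D1:**
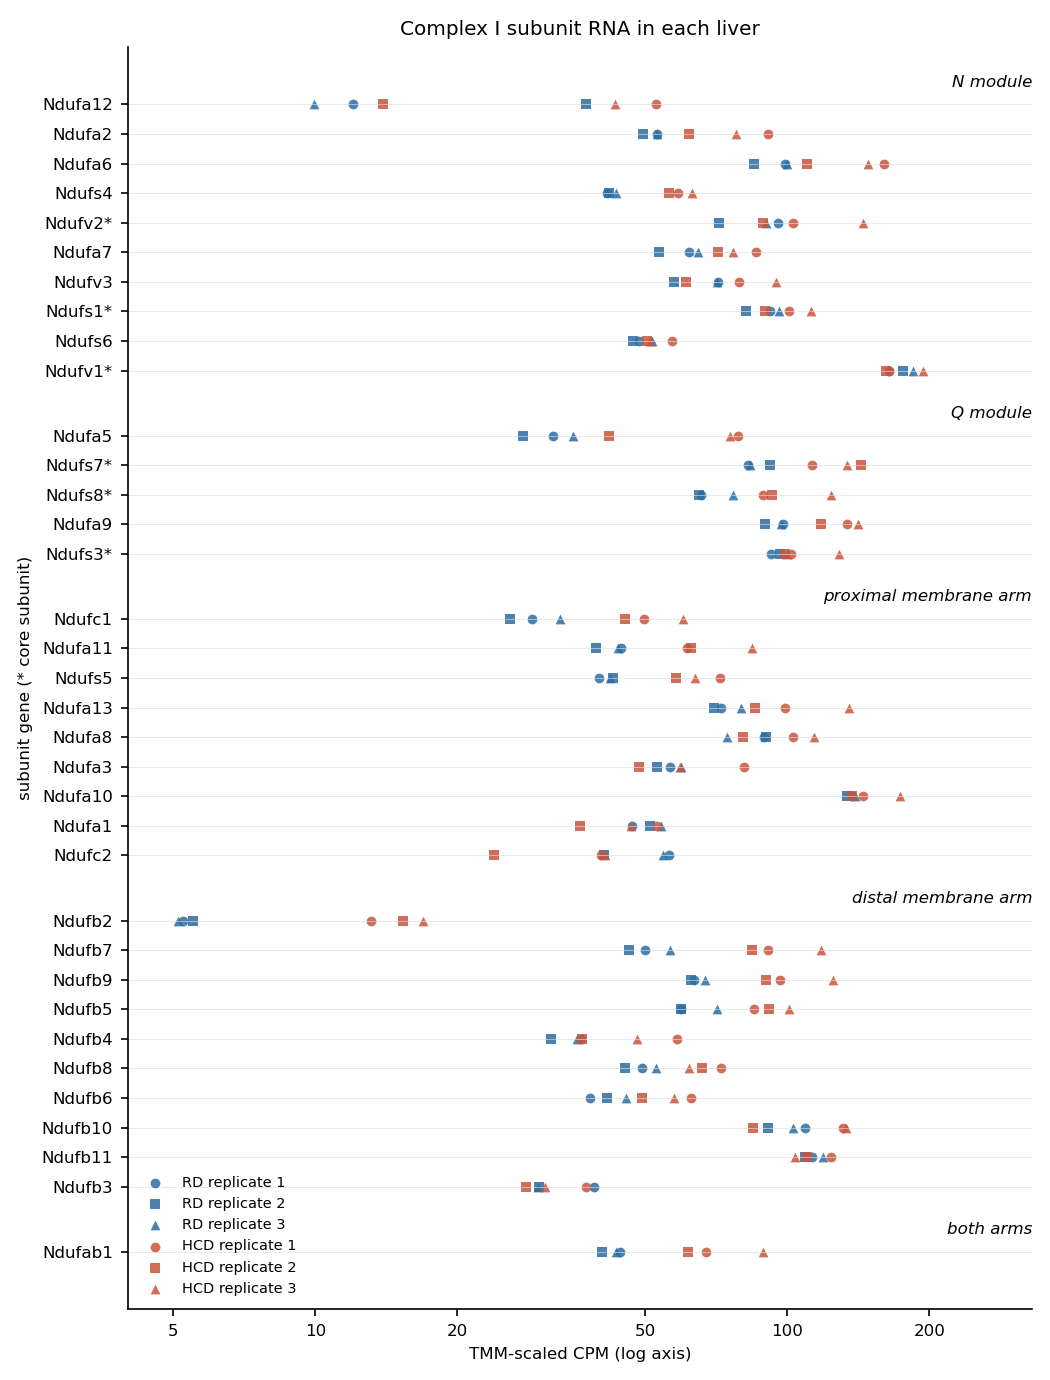
Level of each of 35 subunit RNAs in each liver, as TMM-scaled CPM on a log axis, grouped by module; blue marks are RD livers, red marks HCD livers, the shape gives the replicate and an asterisk marks a core subunit. In 20 rows all red marks lie to the right of all blue marks, in no row do all lie to the left, and Ndufa12 spreads widely within both diets.

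The shift was seen in the livers as a group but not equally in each. The median log2 deviation of the 36 subunits from the mean of the 6 livers was -0.19, -0.29 and -0.11 for the RD livers and 0.22, -0.027 and 0.33 for the HCD livers, in replicate order. HCD replicate 2 was the lowest of its diet and still lay above all RD livers. The calls depended on single livers: without RD replicate 1 or without RD replicate 2, 0 subunits were called, without RD replicate 3 or HCD replicate 3 only Ndufb2, without HCD replicate 1 there were 3 (Ndufb2, Ndufb7 and Ndufs7) and without HCD replicate 2 there were 6. Over all genes the higher calls fell as well, from 255 to 15 without RD replicate 1, to 20 without RD replicate 2, to 73 without RD replicate 3 and to 53 without HCD replicate 3. The subunits' median log2 fold change stayed between 0.39 and 0.52 when any 1 liver was left out.

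**Figure D2:**
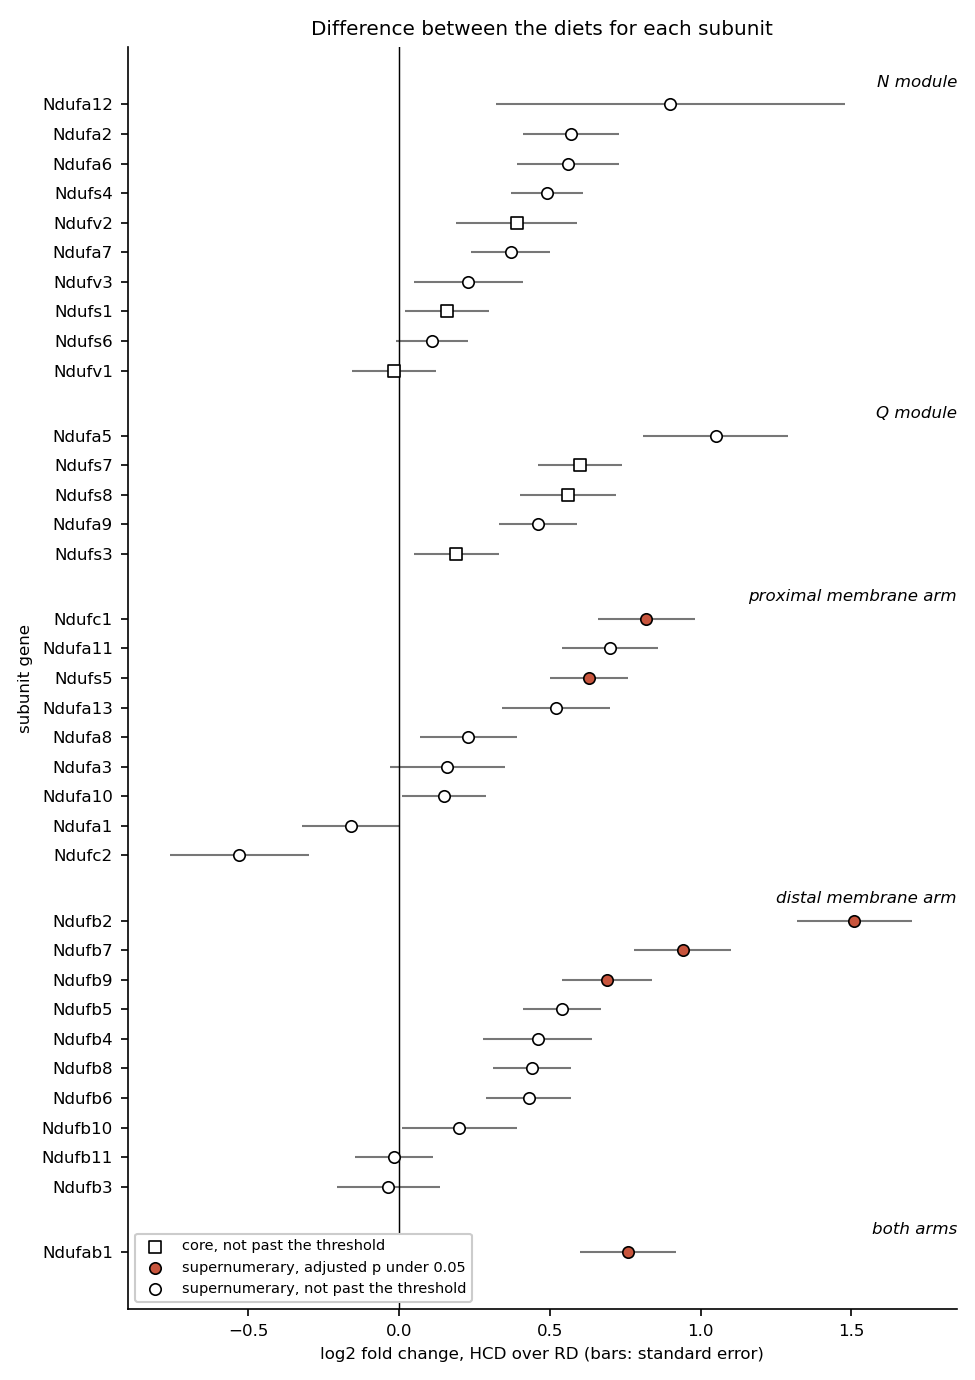
Log2 fold change of HCD over RD for 35 subunits, with bars of 1 standard error, grouped by module; squares are core subunits, circles supernumerary subunits, and filled marks passed an adjusted p under 0.05. The 6 filled marks are supernumerary subunits of the membrane arm or, for Ndufab1, of both arms, and Ndufc2 lies furthest to the left at -0.53.

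The 7 core subunits carry the electron path from NADH to ubiquinone, and 0 of them were called, with a median log2 fold change of 0.25 and a range from -0.016 to 0.60. At an unadjusted p under 0.05, 2 of the 7 were higher (28.6%, against 11.1% of all genes), and DESeq2 called 1, Ndufs7 (14.3%, against 3.88%). In the N module, Ndufv1, which binds NADH and the flavin FMN, had 164, 176 and 185 CPM in the RD livers and 164, 162 and 194 CPM in the HCD livers, in the order of their replicates. The diets overlapped fully, and the log2 fold change was -0.016 (standard error 0.14, adjusted p = 0.959). Ndufv2, which carries an iron-sulfur cluster, had 95.4, 71.7 and 90.3 CPM with RD and 103, 88.8 and 145 CPM with HCD. Its log2 fold change was 0.39 (standard error 0.20, adjusted p = 0.316), with HCD replicate 3 alone far above the rest. Ndufs1, the largest core subunit and the holder of several clusters, had 91.9, 81.6 and 96.0 CPM with RD and 101, 89.5 and 112 CPM with HCD. HCD replicate 2 fell among the RD livers, and the log2 fold change was 0.16 (standard error 0.14, adjusted p = 0.529).

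In the Q module, the core subunits described are Ndufs7, Ndufs8 and Ndufs3. Ndufs7, which holds the last cluster before ubiquinone, had 82.4, 91.7 and 83.4 CPM with RD and 113, 143 and 134 CPM with HCD. The diets did not overlap, and the log2 fold change of 0.60 (standard error 0.14) just missed the threshold at an adjusted p = 0.0539; with DESeq2 it was 0.0127. Ndufs8, another cluster-bearing subunit, had 65.6, 65.0 and 76.9 CPM with RD and 88.9, 92.6 and 124 CPM with HCD, again without overlap, and the log2 fold change was 0.56 (standard error 0.16, adjusted p = 0.102). Ndufs3, a subunit without a cluster, had 92.4, 96.6 and 100 CPM with RD and 102, 98.9 and 129 CPM with HCD. Here HCD replicate 2 lay below RD replicate 3, and the log2 fold change was 0.19 (standard error 0.14, adjusted p = 0.486).

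Of the 29 supernumerary subunits, 25 had a log2 fold change above 0, 6 were called higher (20.7%, against 1.95% of all genes) and 0 lower, and the diets did not overlap in 18, all with HCD higher (62.1%, against 14.0%). Their median log2 fold change was 0.46, with a range from -0.53 to 1.51. In the distal membrane arm, 3 of 10 were called. Ndufb2 (ENSMUSG00000002416; chr6:39592574-39603382, plus strand, in GENCODE M21 on GRCm38) had the highest log2 fold change of all subunits. It was at 5.24, 5.51 and 5.12 CPM in the RD livers and at 13.1, 15.3 and 16.9 CPM in the HCD livers, 2.86-fold higher. The livers of each diet lay close together and far from those of the other (log2 fold change 1.51, standard error 0.19, adjusted p = 0.00948). It had between 79 and 118 counts with RD and between 209 and 260 with HCD, and per length it had the lowest level of the 36, 1.37 FPKM with RD and 3.99 with HCD, where the median subunit had 65.4 and 89.6. The annotated exons of Ndufb2 add up to 5628 bases, and they share bases with 3 other genes, 145 with Gm42420 on the same strand, 156 with the antisense gene Gm16272 and 146 with Braf on the opposite strand.

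Ndufb7 (ENSMUSG00000033938), a CHCH-domain protein on the intermembrane-space side, was at 50, 46.1 and 56.3 CPM with RD and at 90.9, 84.2 and 118 CPM with HCD. This was a 1.92-fold difference without overlap (log2 fold change 0.94, standard error 0.16, adjusted p = 0.0257). Ndufb9, a LYR-motif protein of the kind that binds the acyl carrier protein, was at 63.5, 62.6 and 66.9 CPM with RD and at 96.7, 90 and 125 CPM with HCD. The RD livers were within a few CPM of each other and all HCD livers were higher (log2 fold change 0.69, standard error 0.15, adjusted p = 0.0476). Without any 1 of the 6 livers Ndufb9 was no longer called, its lowest adjusted p then being 0.0523. Of the other distal subunits, Ndufb5 (0.54), Ndufb4 (0.46), Ndufb8 (0.44) and Ndufb6 (0.43) also had no overlap between the diets but did not pass the threshold. Ndufb10 (0.20), Ndufb11 (-0.016) and Ndufb3 (-0.035) overlapped. Ndufb3 was among the 3 lowest subunits, with 38.9, 29.8 and 29.7 CPM under RD and 37.5, 28.0 and 30.6 CPM under HCD, a pattern in which replicate 1 of each diet was high.

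In the proximal membrane arm, 2 of 9 subunits were called (22.2%, against 1.95% of all genes), and this module also held the lowest values. Ndufc1 (ENSMUSG00000037152), a small membrane-spanning subunit, was at 28.8, 25.9 and 33.0 CPM with RD and at 49.8, 45.2 and 60.1 CPM with HCD. The diets were well apart (log2 fold change 0.82, standard error 0.16, adjusted p = 0.0350). Ndufs5 (ENSMUSG00000028648), a CHCH-domain protein facing the intermembrane space, was at 40.0, 42.8 and 42.2 CPM with RD and at 72.0, 58.1 and 63.9 CPM with HCD. The lowest HCD liver was above the highest RD liver by more than the whole spread of the RD livers (log2 fold change 0.63, standard error 0.13, adjusted p = 0.0407). Ndufa11, a membrane-spanning subunit, missed the threshold with a log2 fold change of 0.70 (adjusted p = 0.0516), and Ndufa13, also known as GRIM-19, had 0.52 (adjusted p = 0.146), both without overlap. Ndufa8 (0.23), Ndufa3 (0.16) and Ndufa10 (0.15) overlapped.

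Ndufc2 had the opposite sign. It was at 56.1, 40.9 and 54.5 CPM with RD and at 40.2, 23.9 and 41.1 CPM with HCD, so that only RD replicate 2 and HCD replicate 3 overlapped, and by a small margin. Its log2 fold change was -0.53 (standard error 0.23, adjusted p = 0.232). Ndufc2 and Ndufc1 therefore had the lowest and the highest log2 fold change of the proximal module, and leaving out 1 liver at a time kept Ndufc2 between -0.66 and -0.32 and Ndufc1 between 0.69 and 0.91. Ndufa1, an X-linked membrane subunit, was at 46.9, 51.3 and 54.0 CPM with RD and at 52.9, 36.4 and 46.6 CPM with HCD. The diets overlapped (log2 fold change -0.16, standard error 0.16, adjusted p = 0.601), and HCD replicate 1, the liver with Xist reads, was the highest of its diet. Without it the log2 fold change of Ndufa1 was -0.29 (adjusted p = 0.349), and without any 1 liver it lay between -0.29 and -0.034. Ndufb11, the other X-linked subunit, was highest in the same liver at 124 CPM, beside 110 and 104 CPM in the other HCD livers and 109 to 119 CPM with RD, and without that liver its log2 fold change was -0.092 (adjusted p = 0.737). The same liver was also the highest of its diet for some subunits on other chromosomes, such as Ndufs5 and Ndufb3, but not for all.

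In the peripheral arm, 0 of the 9 supernumerary subunits were called, against 1.95% of all genes. Their median log2 fold change was 0.49 and all 9 were above 0, against 50.7% of all genes. DESeq2 called 2 of the 9 higher (22.2%, against 3.88%), Ndufa5 (adjusted p = 0.000789) and Ndufa2 (adjusted p = 0.0493). Ndufa5, a Q-module subunit, was the second highest of all 36. It was at 31.9, 27.6 and 35.2 CPM with RD and at 78.6, 42.0 and 75.6 CPM with HCD. All HCD livers were higher, but HCD replicate 2 was much nearer to the RD livers than the other two (log2 fold change 1.05, standard error 0.24, adjusted p = 0.0530), and without it the adjusted p was 0.0205. Without any other single liver edgeR's adjusted p for Ndufa5 lay between 0.0978 and 0.216. With the length trend described below removed, it was 0.123. Ndufa9, a relative of short-chain dehydrogenases in the Q module, had no overlap and reached 0.46 on the log2 scale (adjusted p = 0.0901). In the N module, Ndufa2 (0.57), the LYR-motif protein Ndufa6 (0.56), Ndufs4 (0.49) and Ndufa7 (0.37) had no overlap between the diets, while Ndufv3 (0.23) and Ndufs6 (0.11) overlapped. Ndufs4, whose loss in mice is a model of mitochondrial disease, had the closest livers of these, at 42.2 ± 1.03 CPM in RD livers and 59.2 ± 3.34 CPM in HCD livers (mean ± SD, n = 3 each), with an adjusted p = 0.0633 in edgeR's test across all genes.

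Ndufab1 (ENSMUSG00000030869), which belongs to both arms and also serves mitochondrial fatty acid synthesis, was at 44.2, 40.4 and 43.3 CPM with RD and at 67.1, 61.7 and 88.7 CPM with HCD. The difference was 1.70-fold, with all HCD livers above all RD livers (log2 fold change 0.76, standard error 0.16, adjusted p = 0.0430). Its partners among the LYR-motif subunits, Ndufb9 and Ndufa6, had log2 fold changes of 0.69 and 0.56.

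Core and supernumerary subunits differed in their medians. The median log2 fold change of the core subunits was 0.21 below that of the supernumerary subunits (0.25 against 0.46). Taken liver by liver, the core median minus the supernumerary median was 0.062, 0.11 and 0.067 for the RD livers and -0.19, -0.037 and 0.0046 for the HCD livers, in the same order. Each HCD liver was therefore below each RD liver, and HCD replicate 3 was close to no difference. The comparison within the peripheral arm, which holds all nuclear core subunits, gave 0.050, 0.11 and 0.10 with RD and -0.24, -0.037 and -0.0073 with HCD, for median log2 fold changes of 0.25 for core and 0.49 for supernumerary subunits, or 0.28 and 0.36 with the length trend described below removed. Without HCD replicate 1 the core and supernumerary medians were 0.29 and 0.43, and without HCD replicate 3 they were 0.15 and 0.44. The core genes were longer than the supernumerary genes, with a median summed exon length of 2178 bases against 1251 bases. With the length trend removed from each library, the medians over both arms were 0.28 for core and 0.35 for supernumerary subunits, a difference of -0.063. Genes of 1 complex in the same livers are not independent, and no p was computed over them.

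**Figure D3:**
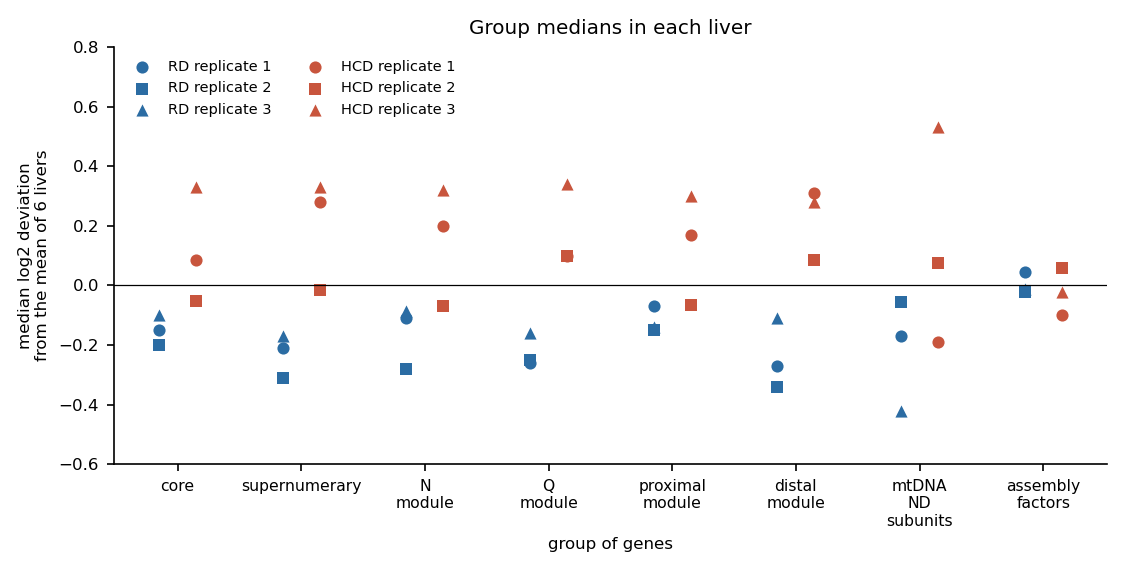
Median log2 deviation from the mean of the 6 livers for each group of genes, with 1 mark per liver; blue marks are RD and red marks HCD, and the shape gives the replicate. The HCD livers lie above the RD livers for core and supernumerary subunits and for each of the 4 modules, and the diets overlap for the mitochondrially encoded ND subunits and for the assembly factors.

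The arms had close medians. The median log2 fold change was 0.42 in the peripheral arm and 0.44 in the membrane arm. In the livers, the membrane median minus the peripheral median was -0.040, 0.0068 and -0.0069 with RD and 0.093, -0.0028 and -0.035 with HCD, so that the diets overlapped, and leaving out 1 liver at a time moved the difference of the medians between -0.087 and 0.044. The calls were uneven, with 5 of 19 in the membrane arm (26.3%) and 0 of 16 in the peripheral arm, against 1.95% of all genes, but the diets did not overlap in 11 of 19 (57.9%) and 9 of 16 (56.2%), against 14.0%. At an unadjusted p under 0.05, 11 of 19 membrane (57.9%) and 8 of 16 peripheral subunits were higher with HCD, against 11.1% of all genes. DESeq2 called 7 of 19 membrane (36.8%) and 3 of 16 peripheral subunits (18.8%) higher, against 3.88% of the genes it tested. With the length trend described below removed, 2 of 19 and 0 of 16 were called, beside 138 higher of all 13101 genes. The median summed exon length was 1092 bases in the membrane arm and 1964 bases in the peripheral arm. Among modules the medians were 0.38 for N, 0.51 for Q, 0.23 for the proximal and 0.45 for the distal module. The distal median minus the proximal median was -0.20, -0.19 and 0.027 in the RD livers and 0.14, 0.15 and -0.020 in the HCD livers, which overlapped because replicate 3 of each diet was near 0.

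Gene length moved with the log2 fold change across all genes. Spearman's rho between them was -0.25 over 13101 genes of these 6 livers, as a description, and the shortest decile of genes (57 to 1436 bases of exon) had a median of 0.32, with 7.78% called higher. That decile held 16 subunits, whose median of 0.33 was close to that of the decile. The next decile (1437 to 2192 bases, median 0.23) held 9 subunits with a median of 0.46, and the 11 longer subunits all came from deciles whose medians were 0.10 or less. Among the 36 subunits themselves rho was 0.22, and Ndufb2, Ndufb7, Ndufab1 and Ndufb5, each with more than 4235 bases, had log2 fold changes of 0.54 or more, while Ndufs1, the longest with 8086 bases, had 0.16. With the length trend removed from each library, the subunits' median was 0.31, beside 0.029 for all genes, and 28 of 36 were above 0. Of the 36, 3 were called higher, beside 138 called higher of all 13101 genes in that fit. These were Ndufb2 (1.60, adjusted p = 0.0104), Ndufb7 (0.99, adjusted p = 0.0360) and Ndufab1 (0.88, adjusted p = 0.0495). Ndufc1, Ndufb9 and Ndufs5, whose summed exons are shorter, had 0.67, 0.48 and 0.40 and adjusted p of 0.0725, 0.142 and 0.207. Summed exon length joins all annotated exons of a gene, so it can exceed the length of a single transcript. For Ndufb7 it was 4522 bases, within a gene at chr8:83566671-83571626. The length correction used this measure, and the lengths of single transcripts were not tested. What the length trend comes from was not tested either.

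**Figure D4:**
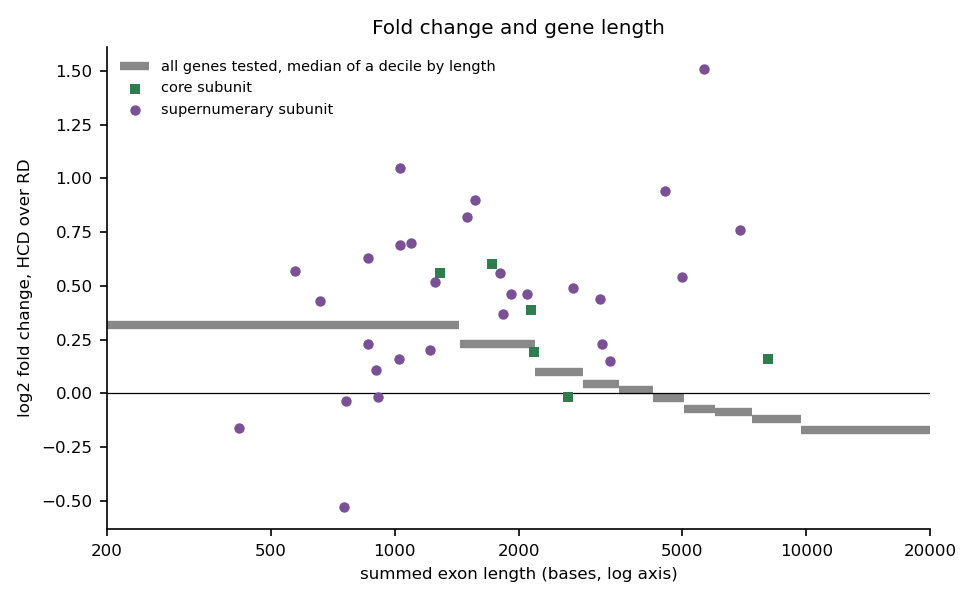
Log2 fold change of HCD over RD against summed exon length on a log axis, for core subunits (squares) and supernumerary subunits (circles); grey bars give the median of all genes tested in each decile by length. The grey medians fall from 0.32 in the shortest decile to -0.17 in the longest, and from the third decile on, at 2193 bases and more, all subunits shown lie above the grey bars except Ndufv1.

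Some subunits share sequence with other genes. The exons of 16 of the 36 overlap an exon of another gene, 3 of them on the same strand (Ndufb2, Ndufb8 and Ndufb9), and the sources used here do not say whether reads were counted by strand. Processed pseudogenes at 90% identity or more over at least 200 bases exist for 14 subunits, 17 copies in all, and 9 copies of 8 subunits were in the count table. Adding their reads to the parent gene left 6 subunits called, the same 6 genes, and moved the log2 fold change from 0.46 to 0.56 for Ndufb4, from 0.76 to 0.81 for Ndufab1 and from 0.63 to 0.60 for Ndufs5. Ndufb4c, identical to Ndufb4 over 390 bases, had 37, 24 and 21 counts with RD and 92, 75 and 77 with HCD, and was itself called higher (log2 fold change 1.88, adjusted p = 0.0367), as was Ndufab1-ps (1.08, adjusted p = 0.0376), which is 99.4% identical to Ndufab1. With any single liver left out, neither was called, the lowest adjusted p being 0.0569 for Ndufb4c and 0.0568 for Ndufab1-ps. With the length trend removed, the adjusted p were 0.0796 and 0.101. Gm4459, the closer copy of Ndufab1 (99.8% identical), was not called (0.76, adjusted p = 0.134), nor was BC002163, a 99.4% identical copy of Ndufs5 in which every HCD liver lay below every RD liver (-1.08, adjusted p = 0.262). Gm12251, 98.6% identical to the core subunit Ndufs3 over 792 bases, held 47 to 109 counts per liver, and adding them left the log2 fold change of Ndufs3 at 0.19. Ndufs6b (0.41, adjusted p = 0.726) was not called. Ndufb1-ps, which carries the name of the distal subunit Ndufb1, was not among the copies found by sequence. Its 1153 exon bases lie spread over chr12:101968090-101977068, and the symbol rule left it out of the 36. It was not called (0.63, adjusted p = 0.208), and whether it encodes a subunit was not tested. Reads of a copy and its parent cannot be separated where the sequences are the same, so the values of the 14 subunits with such copies are less certain than the others.

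Ndufa12, an N-module subunit that takes the place of its paralog, the assembly factor Ndufaf2, late in assembly, had the fourth highest log2 fold change and was the only subunit whose livers fell far apart within both diets. Its values were 12.0, 37.5 and 9.94 CPM with RD and 52.7, 13.9 and 43.1 CPM with HCD. RD replicate 2 therefore lay with the high HCD livers and HCD replicate 2 with the low RD livers, and the difference was not called (log2 fold change 0.90, standard error 0.58, adjusted p = 0.417). The SD within diets was 1.01 on the log2 scale, where that of every other subunit was 0.38 or less. The pseudogene Gm15920, 99.5% identical over 402 bases, had 341, 69 and 280 counts with RD and 195, 132 and 187 with HCD, beside 250, 537 and 229 and 1043, 202 and 532 counts on Ndufa12. Its share of the summed reads was 57.7%, 11.4% and 55.0% with RD and 15.8%, 39.5% and 26.0% with HCD. The sum of both still spread widely, at 28.4, 42.3 and 22.1 CPM with RD and 62.6, 23.0 and 58.3 CPM with HCD (log2 fold change 0.64, adjusted p = 0.367).

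**Figure D5:**
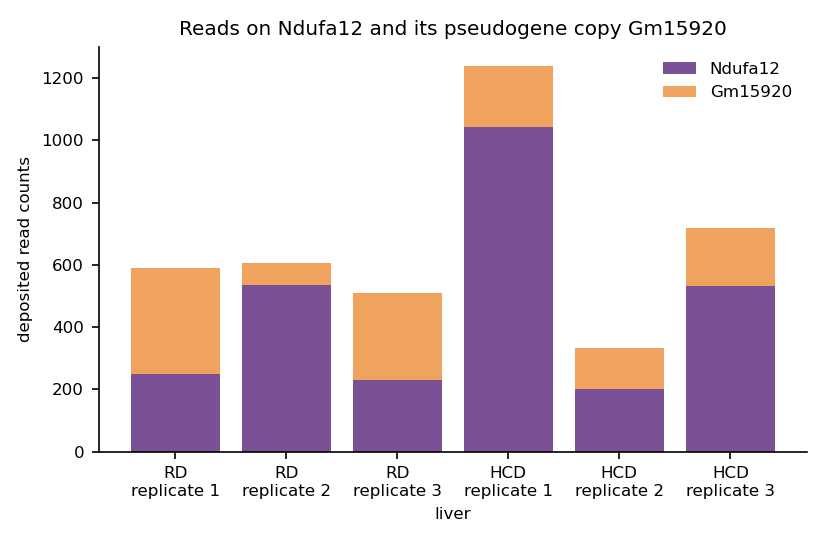
Deposited read counts on Ndufa12 (lower part of each bar) and on its pseudogene copy Gm15920 (upper part) in each liver, not scaled for depth. The copy took 57.7% and 55.0% of the summed reads in RD replicates 1 and 3 and 11.4% in RD replicate 2, and Ndufa12 had 1043 counts in HCD replicate 1 against 202 in HCD replicate 2.

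The 7 ND subunits encoded by mitochondrial DNA, which form the proton-pumping core of the membrane arm, had a median log2 fold change of 0.42, with 0 called, 2 higher at an unadjusted p under 0.05 (28.6%, against 11.1% of all genes) and 2 called by DESeq2 (28.6%, against 3.88%), mt-Nd3 and mt-Nd6. The HCD livers lay above the RD livers in 3 of the 7 (42.9%, against 14.0%). With the length trend removed from each library, the median was 0.19 and 0 were called, with 0.41 for mt-Nd3 and 0.36 for mt-Nd6. As counted, mt-Nd3 was at 31.3, 37.2 and 24.9 CPM with RD and at 45.5, 56.5 and 59.2 CPM with HCD, without overlap (log2 fold change 0.79, standard error 0.18, adjusted p = 0.0557). mt-Nd6, the only one on the other strand, had 0.69 (standard error 0.22, adjusted p = 0.134). The lowest were mt-Nd4l (-0.29, standard error 0.43) and mt-Nd5 (0.20, standard error 0.24), both with overlap. As a group their median deviation was -0.17, -0.054 and -0.42 in the RD livers and -0.19, 0.075 and 0.53 in the HCD livers, so that HCD replicate 1 was among the lowest here while it was the second highest for the nuclear subunits.

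Assembly factors build complex I but are not part of it, and their log2 fold changes centred on 0. Of 19 listed genes 18 were matched in the table (Coa1 was not), and their median log2 fold change was 0.0052, with 9 above and 9 below 0. edgeR and DESeq2 called 0 of them in either direction, and at an unadjusted p under 0.05 1 of the 18 was higher (5.56%, against 11.1% of all genes) and 1 lower (against 9.81%). These were Ndufaf8 (0.61, adjusted p = 0.112) and Foxred1 (-0.59, adjusted p = 0.168). The highest value was that of Lyrm2 (0.70, adjusted p = 0.266) and the lowest after Foxred1 that of Tmem186 (-0.40, adjusted p = 0.367). In 3 of the 18 every HCD liver lay below every RD liver, against 13.7% of all genes, and in 1, Ndufaf8 (5.56%, against 14.0%), every HCD liver lay above.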

How the data were processed

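Liver RNA of 3 mice fed RD and 3 fed HCD was sequenced by a commercial provider, with groups and replicate numbers taken from the sample labels. The authors deposited read counts per gene as whole numbers without normalization, and FPKM values, which the authors derived from fragments per kilobase of exon and library total. The submitters' processing notes name STAR, HTSeq, DESeq2, edgeR and the build GRCm39, without versions or roles. Deposited columns with the authors' own log2 fold changes and p-values were not used. FPKM values were compared with GENCODE M21 (GRCm38) exon lengths, and 32 of the 36 subunits fitted within 0.1%. Gene positions are those of GENCODE M21.

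Counts were analysed with edgeR 4.0.16 in R 4.3.3: filterByExpr by diet left 13105 genes, TMM factors were 0.886 to 1.07, and glmQLFit and glmQLFTest compared HCD with RD without covariates. The biological coefficient of variation was 27.8%. Standard errors were taken from the log2 fold change and its F value. Deviations of single livers are log2(CPM + 0.5) minus the mean of the 6 livers. A count of 3 reads, the limit that 0 reads allow, is 0.130 to 0.243 CPM. Replicates differed by more than counting noise (chi-square per degree of freedom 30.3 to 157). The procedure was tested on simulated data.

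The alternatives were RLE factors, library sizes alone, DESeq2 1.42.0, the low-count filter dropped, a minimum mean of 50 counts, limma-trend (limma 3.58.1) on log2(FPKM + 1) or log2(FPKM + 0.1), offsets removing a loess trend on gene length (span 0.5, degree 1, on log2 CPM with a prior count of 2), the replicate number as a block, and each liver left out. Adding reads on pseudogene copies, found with minimap2 2.31, was chosen after seeing the data. Tables and figures were made with Python 3.11.15, pandas 2.3.3 and matplotlib 3.10.9.

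The members, gene lists and modules were chosen with earlier results of these data known. Every subunit is named, except that 1 is not reported here by name, though it is counted in the group values. Values in every liver are given for called subunits, the core subunits and the 3 highest and 3 lowest by log2 fold change, Ndufa12 was added after its values had been seen, and so was the mean ± SD of Ndufs4. Of the assembly factors and ND subunits, called genes and the 2 highest and 2 lowest are named. All regulators and the copies named for a subunit are given, and the copies Gm15920, Gm4459, BC002163 and Gm12251 were added after their values had been seen. Proteins, blots and other experiments of the study are not analysed here.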

Additional observations from a re-analysis of the deposited data

How the results depend on the processing

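No alternative called a subunit lower, and the medians of all, core, supernumerary, peripheral and membrane subunits stayed above 0 in every alternative. Of 36 subunits, 6 were called as reported, 11 by DESeq2, 3 with the length-trend correction and 2 with the replicate number as a block (Ndufb2 and Ndufb7). Leaving out 1 liver gave 0 to 6. For the 29 supernumerary subunits these counts were 10, 3 and 2, with 3 by limma-trend on log2(FPKM + 0.1) and 0 to 6 without 1 liver. For the core subunits the count was 0 as reported and 1, Ndufs7, by DESeq2, with a mean of at least 50 counts and by limma-trend with either pseudocount, and 0 to 1 without 1 liver. For the ND subunits it was 2 by DESeq2, 1 without a filter, 1 with a mean of at least 50 counts and 0 to 1 without 1 liver. Assembly factors stayed at 0 called throughout. Over all genes, calls fell from 255 higher and 173 lower to 71 and 65 with the block, 138 and 113 with the length correction, and 15 and 21 without RD replicate 1. The core minus supernumerary difference went from -0.21 to -0.063 with the length correction, and lay between -0.29 and -0.14 without 1 liver; the membrane minus peripheral difference lay between -0.087 and 0.044. Signs turned for 6 subunits, none of them called, whose log2 fold changes as reported lay between -0.035 and 0.23: with the length correction, Ndufa3 (-0.041), Ndufa8 (-0.016) and Ndufs6 (-0.12); with a mean of at least 50 counts, Ndufb11 (0.00097) and Ndufv1 (0.00052); by limma-trend with either pseudocount, Ndufb11 (0.0039) and Ndufv1 (0.0036). Without 1 liver, Ndufa3 ranged from -0.062 to 0.31, Ndufb11 from -0.092 to 0.032, Ndufb3 from -0.16 to 0.10 and Ndufv1 from -0.11 to 0.023. The cause was not tested, beyond fewer samples where a liver was left out. Same-numbered livers correlated at -0.0761, 0.0879 and -0.0413 in their deviations, and HCD replicate 1 correlated best with RD replicate 3 (0.133), so the numbers were not taken as pairs.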

Other observations

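Regulators of mitochondrial genes were not called. Of 9 listed genes, 7 had a log2 fold change of HCD over RD above 0, with a median of 0.16, and edgeR, DESeq2 and an unadjusted p under 0.05 all gave 0. In 2 of the 9, Gabpb1 and Tfam, every HCD liver lay above every RD liver (22.2%, against 14.0% of all genes tested), and in the other 7 the diets overlapped. The coactivators Ppargc1a, Ppargc1b and Pprc1 had 0.27 (adjusted p = 0.768), 0.16 (adjusted p = 0.864) and -0.65 (adjusted p = 0.314), and all 3 overlapped between the diets. Among the factors whose sequences were searched, Nrf1 had 0.12, the GABP subunits Gabpa and Gabpb1 had -0.17 and 0.33, Yy1 had 0.092 and Esrra, an ERR receptor, had 0.19. Tfam, which packages and transcribes mitochondrial DNA, had the closest livers, at 34.6, 36.3 and 35.8 CPM with RD and 41.1, 42.4 and 43.9 CPM with HCD, without overlap, and the log2 fold change was 0.26 (standard error 0.12, adjusted p = 0.262).

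Per length, the subunit RNAs of this complex spanned a wide range within each diet. The highest level was 183 FPKM for Ndufb11 with RD and 200 FPKM for Ndufa2 with HCD, and the lowest was that of Ndufb2 with both diets. FPKM divides by exon length, and all annotated exons summed to 5628 bases for Ndufb2, 908 for Ndufb11 and 572 for Ndufa2. How much of the range comes from these lengths was not tested. Across the 36 subunits, Spearman's rho between the log2 fold change and the mean CPM was -0.27, as a description of genes that share the same 6 livers.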
